A study of Mus musculus with 12 samples.

Results

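The genes described here are 38 members of the unfolded protein response and the integrated stress response, followed in mouse breast tumour cells with and without a construct described as dominant negative for beta-catenin. They were taken by symbol, as the rows of the deposited count table that carry one of the 38 names. The rule found 39 of 55492 rows, because Ddit3 has 2 Ensembl entries. The second of these, an overlapping gene model, had no counts in any of the 12 libraries and was not tested. The other 38 rows were all among the 15052 genes with enough counts for testing. By role they are 14 chaperones and folding enzymes of the endoplasmic reticulum (ER), 4 genes of ER-associated degradation, 5 sensors and transcription factors of the response, and 15 targets of the transcription factor ATF4.

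The cells are CCN6KOT, primary cells from a mouse breast tumour with spindle metaplastic histology, grown in DMEM/F12 with FBS, and all groups share this background. Each of the 4 groups held 3 libraries, and in every group the cells had been transduced with lentivirus and selected with puromycin. Vector cells carried the control lentivirus (PPGS-Vector in the titles). DNTCF4 cells (DNTCF4-Vector in the titles) carried a dominant negative construct of that name, which the design text describes as acting on beta-catenin. By their titles the DNTCF4 cells also carried a vector in the place of a second construct. The other groups carried DNTCF4 together with a second construct named EZH2 (DNTCF4_EZH2, the EZH2 group) or SET (DNTCF4_SET, the SET group), and the design text calls the added proteins a rescue. The sources used here do not say what the SET construct encodes, which promoter drives any construct, or whether a group is a selected population or a single clone. Nothing states that the 3 libraries of a group are separate cultures, so the p-values measure library-to-library spread, which may be technical only. Reads on Tcf7l2, the gene of the factor also called TCF4, stood at 11.02 ± 2.48 CPM in Vector and 39.8 ± 2.41 in DNTCF4 (SD, n = 3), with 45.5 and 35.2 in the EZH2 and SET groups. Those on Ezh2 stood at 57.9 ± 1.53 in Vector, 65.4 ± 3.10 in DNTCF4, 449.9 ± 20.5 in the EZH2 group and 546 ± 33.1 in the SET group, so both groups with a second construct carried more of them. Reads on the gene Set stood at 687 ± 18.7 in Vector, 617 ± 43.5 in DNTCF4, 535 ± 9.35 in the EZH2 group and 551 ± 17.2 in the SET group. They were not higher in the SET group than in Vector or DNTCF4.

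The unfolded protein response is the reaction of the ER to proteins that fail to fold. Its sensors in the ER membrane are IRE1, which splices the mRNA of the transcription factor XBP1, ATF6, which is cut to release a transcription factor, and PERK, a kinase that phosphorylates the translation factor eIF2. XBP1 and ATF6 raise chaperones and degradation genes through ER stress response elements in promoters. Phosphorylated eIF2 lowers translation in general and favours that of ATF4, which raises genes of amino acid supply and of stress signalling. Other kinases that sense amino acid shortage, viral RNA or haem act on the same eIF2 site, and this shared arm is called the integrated stress response. Gene counts show mRNA amounts, and not the splicing of Xbp1, the cutting of ATF6 or the phosphorylation of eIF2.

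Promoter sequences are shown first because the chaperones and the ATF4 targets, whose levels are compared below, differ in the elements they hold. Windows of 300 bases (250 before and 50 after the gene's start) in the GRCm38.p6 assembly were taken from RefSeq, which gave one for 34 of the 38 genes (none was found for Slc7a5, Atf6, Hyou1 and Manf). They were searched on both strands for the ER stress response element (ERSE, letters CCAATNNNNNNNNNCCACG), its second form (ERSE-II, ATTGGNCCACG), the C/EBP-ATF response element bound by ATF4 (CARE, TGATGNAA) and the XBP1 element UPRE (TGACGTGG). ERSE, ERSE-II and UPRE share the letters CCACG on one strand or the other, so that their matches can overlap. The stretches below, 5′ to 3′ on the strand of the gene, carry the match in capitals, with up to 30 bases on each side and positions counted from the RefSeq start. Where the match lies on the opposite strand, the capitals are its reverse complement.
Hspa5, ERSE at -65 to -47, chr2:34771995-34772073, plus strand: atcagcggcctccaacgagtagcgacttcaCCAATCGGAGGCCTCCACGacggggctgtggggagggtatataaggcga
Creld2, ERSE at -126 to -108, chr15:88819490-88819568, plus strand: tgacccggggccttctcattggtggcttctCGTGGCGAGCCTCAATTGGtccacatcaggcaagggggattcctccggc
Hsp90b1, ERSE at -212 to -194, chr10:86705608-86705686, minus strand: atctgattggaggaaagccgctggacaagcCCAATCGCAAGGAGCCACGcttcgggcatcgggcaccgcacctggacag
Calr, ERSE at -162 to -144, chr8:84847045-84847123, minus strand: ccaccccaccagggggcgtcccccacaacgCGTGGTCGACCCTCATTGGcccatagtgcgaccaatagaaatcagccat
Dnajc3, ERSE at -105 to -87, chr14:118937797-118937875, plus strand: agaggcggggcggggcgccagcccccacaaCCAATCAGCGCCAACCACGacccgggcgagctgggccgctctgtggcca
Syvn1, ERSE at -44 to -26, chr19:6046502-6046575, plus strand: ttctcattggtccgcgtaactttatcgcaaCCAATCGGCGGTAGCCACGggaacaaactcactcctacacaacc
Herpud1, ERSE-II at -52 to -42, chr8:94386347-94386417, plus strand: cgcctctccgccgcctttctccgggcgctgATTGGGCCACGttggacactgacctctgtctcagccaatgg
Chac1, CARE at -193 to -186, chr2:119351019-119351086, plus strand: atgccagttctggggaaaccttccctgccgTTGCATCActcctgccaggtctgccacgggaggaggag
Vldlr, CARE at -200 to -193, chr19:27216790-27216857, plus strand: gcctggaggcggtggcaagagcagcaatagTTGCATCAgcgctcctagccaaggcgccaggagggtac
Nupr1, CARE at -110 to -103, chr7:126625543-126625610, minus strand: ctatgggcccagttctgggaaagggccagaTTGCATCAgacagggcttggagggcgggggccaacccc
Asns, CARE at -23 to -16, chr6:7693210-7693262, minus strand: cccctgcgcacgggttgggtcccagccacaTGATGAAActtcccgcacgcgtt

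The ERSE was found in 7 of the 12 chaperone genes with a window (58.3%), namely Calr, Canx, Creld2, Dnajc3, Hsp90b1 with 2 matches, Hspa5 and Pdia6, and in Syvn1 of the degradation genes. Over all 32817 RefSeq windows it was found in 39 (0.119%). ERSE-II was found in Herpud1 and Dnajb11, against 12 windows (0.0366%) in all. CARE was found in 5 of the 14 ATF4 target genes with a window (35.7%), Asns, Chac1, Nupr1, Trib3 and Vldlr, and in Herpud1, against 3.97% of all windows. No chaperone window held CARE and no ATF4 target window held the ERSE, while UPRE was found in none of the 34 (0.677% of all windows). These elements were defined on genes of this kind, so the shares describe the promoters and support nothing about the factors. A missing match says only that these letters are not in the window.

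Levels are given in CPM, counts scaled to the library total after TMM normalization, which corrects the totals for differences in composition. Changes are log2 differences between group means with their standard error (SE), from edgeR's quasi-likelihood test fitted to all tested genes, with Benjamini-Hochberg adjusted p-values. A gene is called higher or lower where the adjusted p is under 0.05. Library totals ran from 23597545 to 33999982 counts, and the 38 genes took 1.13% to 1.42% of them. Pairs of libraries in a group were compared by chi-square over genes, divided by its degrees of freedom. DNTCF4 replicate 1 stood apart, at 19.8 and 12.5 from replicates 2 and 3, while those 2 were 3.26 from each other, and DNTCF4_EZH2 replicates 1 and 2 were 15.8 apart. Some of the results that rest on DNTCF4 replicate 1 or a DNTCF4_EZH2 library are given with and without it. Of the mesenchymal markers, 7 of 8 had a mean of at least 1 CPM (Vim from 613 to 1062, and Twist1 at 0 in all libraries), against 3 of 8 epithelial markers, Krt8, Krt18 and Cldn4, with Cdh1 at most 1.15 CPM. Summed, the epithelial markers reached 318 to 354 CPM over the libraries, most of it Krt18 (227 to 262) and Krt8 (79.7 to 89.6). The summed mesenchymal markers moved with the groups, from 10539 to 11448 CPM in Vector, 4703 to 5233 in DNTCF4, 5993 to 6109 in the EZH2 group and 5506 to 5955 in the SET group, and their part in the results below was not tested. Fn1 made up most of this sum, at 3557 to 9066 CPM over the libraries, and Col1a1 ran from 260 to 1061. Zeb1 (71.4 to 94.9), Zeb2 (103 to 126), Snai2 (26.1 to 40.4) and Pdgfrb (19.9 to 40.0) added little. Leukocyte markers summed to at most 3.00 CPM and endothelial markers to at most 5.26 CPM in any library. In bulk RNA, fewer cells that express a gene and less of its RNA per cell cannot be told apart.

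Per kilobase of exon, 4 chaperones were the most abundant of these genes in Vector, while others such as Dnajc3 (20.2 CPM per kilobase) and Manf (47.1) were below Atf4 and Phgdh. Calr reached 569.8 CPM per kilobase, Hsp90b1 431, Hspa5 375 and Pdia3 344, followed by Atf4 at 229.7 and the serine synthesis gene Phgdh at 208. The lowest were the sensor Eif2ak3 at 6.88 and the degradation gene Edem1 at 10.8. Vldlr, at 12.7, was the lowest ATF4 target in Vector. Most of the changes described below are under 1.5-fold.

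In DNTCF4 against Vector the chaperones were mostly higher, with a median change of 0.15 on the log2 scale. The ATF4 targets split into 4 higher and 7 lower, with a median of -0.09. Of all 15052 genes, 29.5% were called higher and 28% lower in that comparison. With EZH2 added 13 of 14 chaperones were called lower than in DNTCF4 (median -0.32), beside 12.5% of all genes. With SET added 7 chaperones were called lower (median -0.14), beside 13.3% of all genes. The median of the ATF4 targets was -0.10 with EZH2 and -0.11 with SET. The medians of the degradation genes were -0.09, -0.11 and -0.10 in these 3 comparisons, and those of the sensors and factors 0.06, -0.09 and -0.10. Between the EZH2 and SET groups edgeR called 8 chaperones, all lower with EZH2, and none of the 24 other genes, of which DESeq2 called 1, Vldlr. Of all genes tested, 2.17% were called lower and 3% higher between these groups.

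**Figure D1:**
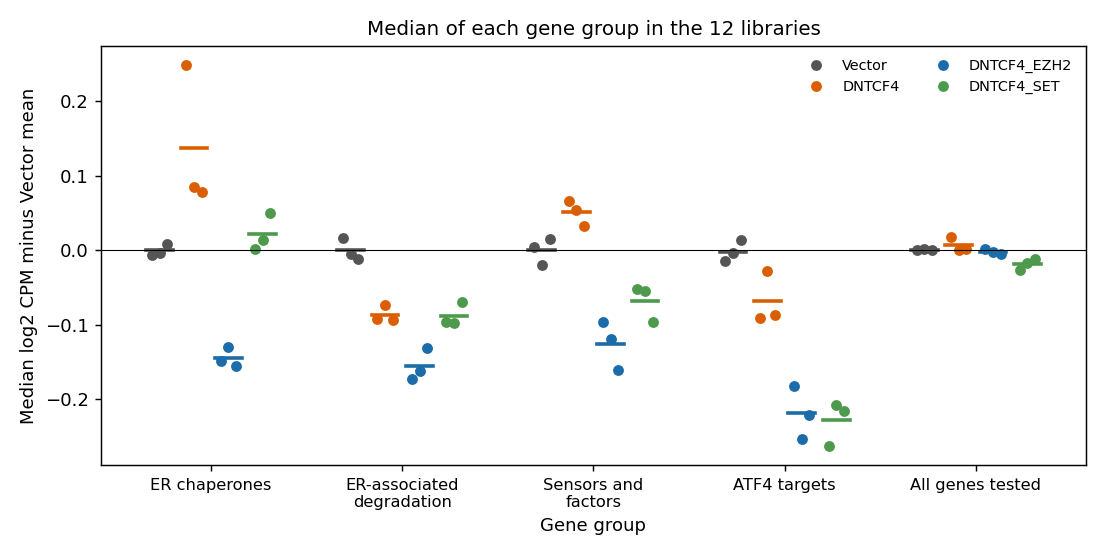
Median over the genes of each role of the log2 CPM minus its Vector mean, 1 point per library and a bar at the mean of the 3 libraries, beside the same median over all 15052 tested genes. The chaperone medians of DNTCF4 lie at 0.25, 0.08 and 0.08 and those of the EZH2 group at -0.13 to -0.15, while the ATF4 target medians of the EZH2 and SET groups share the range of -0.18 to -0.26.

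Among the 38 genes, 14 were higher and 11 lower in DNTCF4 than in Vector, with a median of 0.07. Over all 15052 genes 29.5% were called higher and 28% lower in this comparison, with a median of 0.0073, so that the members' counts of either direction lie near the background. For the chaperones alone, 8 of 14 were higher, and 1 of the other 6, Dnajc3, had a negative estimate that was not called. Without DNTCF4 replicate 1, 7 chaperones were higher and Dnajc3 was lower at -0.17 (adjusted p = 0.00157), and the chaperone median was 0.07. Only Vldlr and Slc7a5 changed by at least 1.5-fold.

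In the EZH2 group against DNTCF4, 23 of the 38 genes were lower and 1, Vldlr, was higher, with a median of -0.19. Over all genes 12.5% were called lower and 13% higher, and the median of all genes was -0.00047. The lower genes were 13 of 14 chaperones, 2 of 4 degradation genes (Herpud1 and Syvn1), 2 of 5 sensors and factors (Atf4 and Xbp1) and 6 of 15 ATF4 targets. Without DNTCF4 replicate 1 the counts were 12 chaperones with a median of -0.25 and 9 ATF4 targets with a median of -0.11. Hspa5 was the only member past 1.5-fold.

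In the SET group against DNTCF4, 19 genes were lower and 2 higher, with a median of -0.11. The shares over all genes were 13.3% lower and 12.7% higher, with a median of -0.0040. The lower genes were 7 of 14 chaperones, Herpud1 and Syvn1, 3 sensors and factors (Ern1, Xbp1 and Atf4) and 7 ATF4 targets. Vldlr and Eif2ak3 were higher. No member passed 1.5-fold. Without DNTCF4 replicate 1, 7 chaperones were again lower, but their median was -0.08, and 8 ATF4 targets were lower, with a median of -0.17. DNTCF4 serves as the reference for both second constructs and as the treated group against Vector, so these comparisons share its 3 libraries and are not independent.

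**Figure D2:**
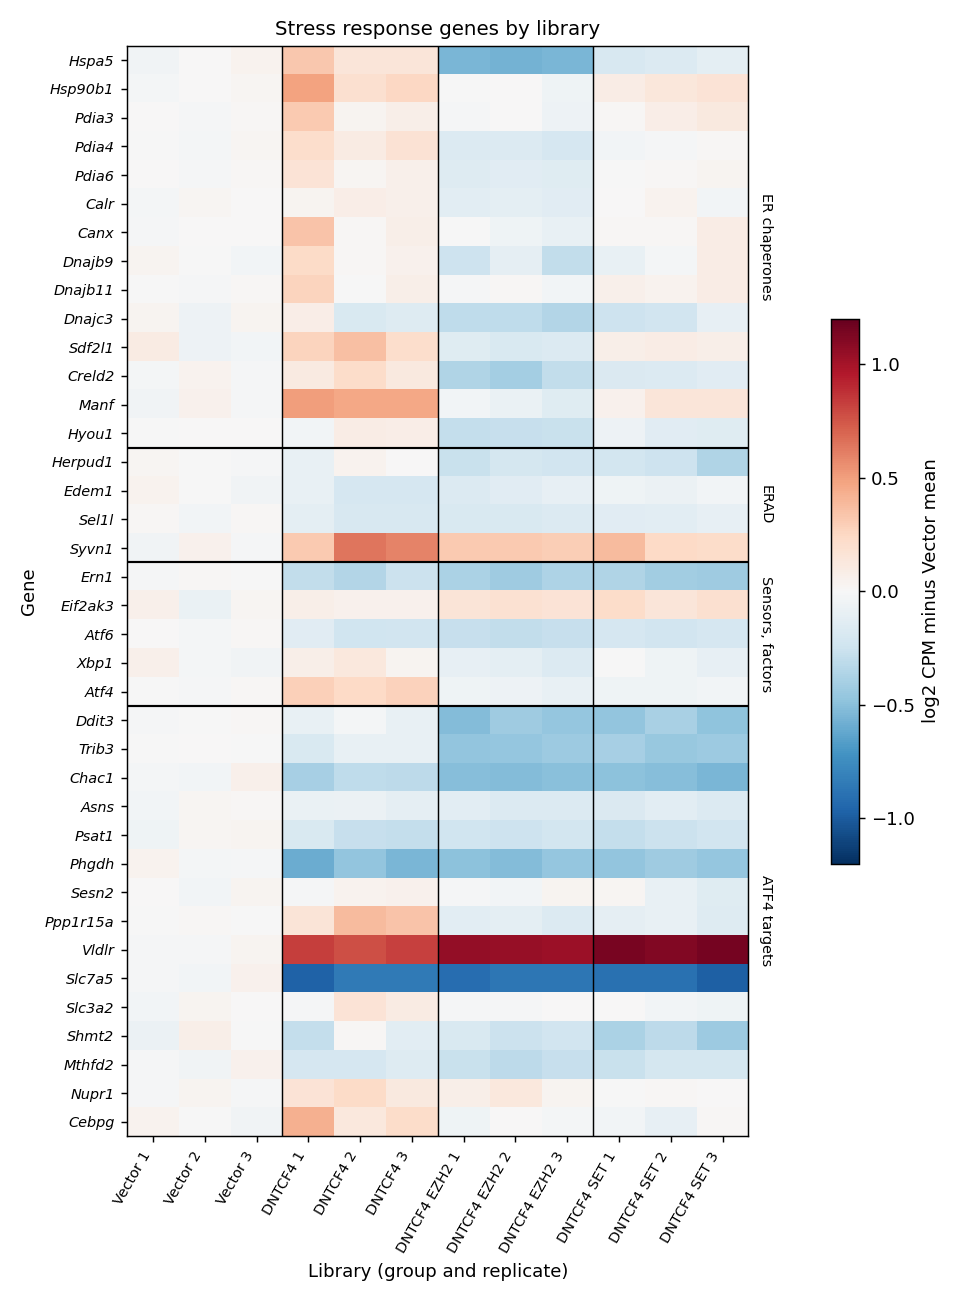
Heat map of the 38 genes (rows, grouped by role) in the 12 libraries (columns), coloured by log2 CPM minus the Vector mean of the gene. Most chaperone rows are red in DNTCF4 and blue in the EZH2 group, Vldlr is red and Slc7a5 blue in all 9 libraries that carry DNTCF4, and DNTCF4 replicate 1 is redder than its group in Pdia3, Canx and Hsp90b1.

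Among the transcription factors, Atf4 itself (chromosome 15, 80255184 to 80257541, GRCm38) rose with DNTCF4 and fell with either second construct. Its libraries read 539, 537 and 549 CPM in Vector, 660.2, 638 and 657 in DNTCF4, 523, 519 and 508 in the EZH2 group and 522, 522 and 529 in the SET group. Every DNTCF4 library lay above the other 9 libraries. The change was 0.27 (SE 0.029, adjusted p = 1.58e-06) in DNTCF4 against Vector, -0.34 (SE 0.029, adjusted p = 7.43e-07) with EZH2 and -0.31 (SE 0.029, adjusted p = 2.01e-06) with SET. Against Vector it was -0.07 (SE 0.029, adjusted p = 0.0596) in the EZH2 group and -0.05 (SE 0.029, adjusted p = 0.187) in the SET group, neither of which passed the test, though the first did in 5 of 15 alternative fits, DESeq2's test among them.

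Xbp1, the factor activated by IRE1, stood at 106, 100.2 and 99 CPM in Vector, 107, 111 and 104 in DNTCF4, 95.2, 93.7 and 91 in the EZH2 group and 101, 97.9 and 95.2 in the SET group. The lowest values were those of the EZH2 group, all below every DNTCF4 and Vector library. Its change was 0.08 (SE 0.041, adjusted p = 0.135) in DNTCF4 against Vector, -0.20 (SE 0.041, adjusted p = 0.00219) with EZH2 and -0.13 (SE 0.041, adjusted p = 0.0333) with SET. The last call was lost in 8 of 15 alternative fits, among them DESeq2's test and those without DNTCF4 replicate 2 or SET replicate 2 or 3.

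The sensors moved by small amounts. Ern1, which encodes IRE1 alpha, read 192, 195 and 193 CPM in Vector, 157, 152 and 162 in DNTCF4, 149, 144 and 149.8 in the EZH2 group and 150.3, 145 and 144 in the SET group. All 3 Vector libraries were above the other 9, at -0.30 (SE 0.035, adjusted p = 3.06e-06) for DNTCF4. Its further step with SET, -0.10 (SE 0.035, adjusted p = 0.0489), was lost in 11 of 15 alternative fits, and that with EZH2, -0.09 (SE 0.035, adjusted p = 0.0787), was not called. Atf6, the gene of the sensor that is itself a transcription factor, read 166, 163 and 167 CPM in Vector, 150.3, 140.1 and 141 in DNTCF4, 137, 135 and 137 in the EZH2 group and 144, 141 and 144 in the SET group. Vector was again the highest group, with -0.20 (SE 0.035, adjusted p = 0.000136) in DNTCF4, and no further change was called with a second construct (0.128 with EZH2 and 0.889 with SET as adjusted p). Eif2ak3, which encodes PERK, read 43.3, 39.1 and 42.1 CPM in Vector, 43.4, 43 and 43 in DNTCF4, 46, 47.2 and 46.5 in the EZH2 group and 48.3, 45.8 and 47.4 in the SET group. All 6 libraries with a second construct lay above the other 6. Its estimate was 0.06 (SE 0.045, adjusted p = 0.3) in DNTCF4 against Vector. The rise with SET, 0.13 (SE 0.045, adjusted p = 0.0458), was lost in 9 of 15 alternative fits, and the EZH2 group gave 0.11 (SE 0.044, adjusted p = 0.0833).

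The chaperone that moved most was Hspa5, which encodes BiP, the Hsp70 of the ER lumen and the protein that holds the sensors inactive. It lies on chromosome 2, 34771970 to 34777547 (GRCm38) and its promoter stretch is the first one shown above. Its libraries read 1539, 1591 and 1629.8 CPM in Vector, 1983, 1756 and 1759 in DNTCF4, 1084, 1074 and 1088 in the EZH2 group and 1388, 1419 and 1463 in the SET group. The 4 groups did not overlap, with DNTCF4 highest, then Vector, the SET group and the EZH2 group, and DNTCF4 replicate 1 was the highest library. With DNTCF4 Hspa5 rose 1.15-fold over Vector, a log2 difference of 0.21 (SE 0.044, adjusted p = 0.00081). With 1 library of these groups left out, Hspa5 rose by 0.14 to 0.25. With EZH2 it was 1.69-fold lower than in DNTCF4, at -0.76 (SE 0.044, adjusted p = 7.27e-09), and with SET 1.29-fold lower, at -0.36 (SE 0.044, adjusted p = 2.49e-05). Against Vector the changes were -0.55 (SE 0.044, adjusted p = 4.13e-08) in the EZH2 group and -0.16 (SE 0.044, adjusted p = 0.00632) in the SET group.

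Manf, an ER protein that binds BiP and can be secreted, showed the largest rise of the chaperone role with DNTCF4. It read 161, 172 and 164 CPM in Vector, 235, 229 and 228 in DNTCF4, 162, 156 and 149.7 in the EZH2 group and 171, 184 and 183 in the SET group. All DNTCF4 libraries lay above the other 9. The change was 0.48 (SE 0.041, adjusted p = 1.04e-07) in DNTCF4, -0.57 (SE 0.041, adjusted p = 8.73e-08) with EZH2 and -0.36 (SE 0.041, adjusted p = 1.27e-05) with SET. Against Vector it stood at -0.09 (SE 0.041, adjusted p = 0.0778) in the EZH2 group and 0.11 (SE 0.041, adjusted p = 0.027) in the SET group, the latter call being lost without SET replicate 2 or 3 or Vector replicate 1 or 3.

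Creld2, a cysteine-rich ER protein induced by ER stress, read 121, 127 and 122 CPM in Vector, 133, 144 and 134 in DNTCF4, 96.1, 92.8 and 100.3 in the EZH2 group and 109, 110.2 and 112 in the SET group. The EZH2 group was lowest and DNTCF4 highest, with no overlap among the 4 groups. It changed by 0.15 (SE 0.042, adjusted p = 0.00587) in DNTCF4, -0.51 (SE 0.042, adjusted p = 4.09e-07) with EZH2 and -0.31 (SE 0.042, adjusted p = 7.32e-05) with SET. Sdf2l1, a partner of the BiP co-chaperone complex, read 66.1, 58.9 and 60.01 CPM in Vector, 74.1, 79 and 71.1 in DNTCF4, 55.6, 54.3 and 55 in the EZH2 group and 64.6, 65.7 and 64.7 in the SET group. Its DNTCF4 libraries lay above all others and its EZH2 libraries below all others. The changes were 0.28 (SE 0.05, adjusted p = 0.0002), -0.44 (SE 0.049, adjusted p = 9.87e-06) and -0.20 (SE 0.049, adjusted p = 0.00701) in the same order of comparisons.

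Hsp90b1, the ER form of Hsp90 known as GRP94, read 1704, 1741 and 1767 CPM in Vector, 2420.4, 1987 and 2066 in DNTCF4, 1734, 1738 and 1671 in the EZH2 group and 1847, 1904 and 1941 in the SET group. DNTCF4 replicate 1 stood well above replicates 2 and 3, and the EZH2 libraries overlapped those of Vector. It changed by 0.31 (SE 0.055, adjusted p = 0.000181) in DNTCF4 and -0.33 (SE 0.055, adjusted p = 0.00041) with EZH2. The change with SET, -0.19 (SE 0.055, adjusted p = 0.0218), was lost without SET replicate 1 or 2, and without DNTCF4 replicate 1 it was -0.10. Pdia4, a protein disulfide isomerase, read 163, 161 and 166 CPM in Vector, 189.8, 175 and 185 in DNTCF4, 146, 146 and 142 in the EZH2 group and 159.8, 162 and 165 in the SET group. DNTCF4 was highest and the EZH2 group lowest, and the SET libraries shared the range of Vector. Its changes were 0.16 (SE 0.036, adjusted p = 0.00136) in DNTCF4, -0.34 (SE 0.036, adjusted p = 6.19e-06) with EZH2 and -0.17 (SE 0.036, adjusted p = 0.00257) with SET.

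The other 8 chaperones fell by at most 0.33 on the log2 scale with EZH2. Pdia3 and Pdia6, both disulfide isomerases, were higher in DNTCF4 by 0.14 (SE 0.057, adjusted p = 0.0411) and 0.09 (SE 0.035, adjusted p = 0.0461), and neither call held without DNTCF4 replicate 1 or Vector replicate 2 or 3. The nucleotide exchange factor gene Hyou1, which serves BiP, was not called in DNTCF4 (0.05) but was lower with EZH2 at -0.33 (SE 0.037, adjusted p = 1.21e-05) and with SET at -0.16 (SE 0.037, adjusted p = 0.00435). The lectin chaperones of the calnexin cycle, Calr and Canx, were not called in DNTCF4 or with SET in the main fit. They were lower with EZH2 at -0.19 (SE 0.03, adjusted p = 0.00034) and -0.20 (SE 0.063, adjusted p = 0.0312). DESeq2's test called Canx higher in DNTCF4, at 0.14 (adjusted p = 0.0466). Without DNTCF4 replicate 2, edgeR called it higher in DNTCF4, at 0.21, and lower with SET, at -0.18. Of the J-domain co-chaperones of BiP, Dnajb9 fell with EZH2 by 0.31 on the log2 scale and Dnajc3 by 0.24, while Dnajb11 at -0.13 (SE 0.053, adjusted p = 0.0853) was the 1 chaperone not called in that comparison. Canx and Pdia3 lost their EZH2 calls when DNTCF4_EZH2 replicate 2 or 3 was left out, and Pdia3 also without DNTCF4 replicate 1, at -0.08 (adjusted p = 0.089), or DNTCF4_EZH2 replicate 1. Without DNTCF4 replicate 1 the changes of Canx and Dnajc3 with EZH2 were -0.09 and -0.15, both still called.

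The 4 degradation genes differed in direction in DNTCF4. Syvn1, the HRD1 ubiquitin ligase of ER-associated degradation, read 72.4, 77.5 and 73.9 CPM in Vector, 92.9, 117 and 113 in DNTCF4, 92.7, 92.5 and 91.6 in the EZH2 group and 97.1, 88.2 and 86.7 in the SET group. DNTCF4 replicate 1 was as low as the SET and EZH2 libraries, and Vector was lowest. The rise in DNTCF4 was 0.53 (SE 0.07, adjusted p = 1.11e-05). It stayed above Vector with EZH2 at 0.31 (SE 0.07, adjusted p = 0.00153) and with SET at 0.28 (SE 0.07, adjusted p = 0.00297). Its falls from DNTCF4, -0.22 (SE 0.068, adjusted p = 0.0269) and -0.25 (SE 0.069, adjusted p = 0.0153), were lost when DNTCF4 replicate 2 or 3 was left out, the first also without any 1 of the DNTCF4_EZH2 libraries and the second without SET replicate 2 or 3. The 1 degradation gene with both ERSE-II and CARE, Herpud1, which encodes a membrane scaffold of that ligase, was not called in DNTCF4 (-0.01) and fell with EZH2 by 0.23 and with SET by 0.26. Sel1l, the ligase's adaptor, and Edem1, a lectin that delivers glycoproteins to it, were each lower in DNTCF4. Their changes were -0.17 (SE 0.034, adjusted p = 0.000502) and -0.17 (SE 0.042, adjusted p = 0.00313). Neither was called with a second construct in the main fit. Edem1 was called higher with SET by DESeq2's test, at 0.13 (adjusted p = 0.0317), and by edgeR without DNTCF4 replicate 1, at 0.15 (adjusted p = 0.00527).

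Of the 7 ATF4 targets of stress signalling, 5 fell with both second constructs, Ddit3, Trib3, Ppp1r15a, Chac1 and Cebpg. Among all 15 ATF4 targets 6 were lower and 1 higher with EZH2, and 7 and 1 with SET. The shares called lower over all genes were 12.5% with EZH2 and 13.3% with SET. Ddit3, which encodes the transcription factor CHOP, read 130.2, 131 and 132 CPM in Vector, 123, 129 and 123 in DNTCF4, 91.4, 97.5 and 95.3 in the EZH2 group and 94.2, 100.4 and 93.6 in the SET group. Vector and DNTCF4 were close, and all 6 libraries with a second construct lay below the other 6. It changed by -0.07 (SE 0.039, adjusted p = 0.154) in DNTCF4, -0.40 (SE 0.039, adjusted p = 2.5e-06) with EZH2 and -0.38 (SE 0.039, adjusted p = 5.7e-06) with SET. Trib3, a pseudokinase induced by CHOP and ATF4, read 181, 183 and 182 CPM in Vector, 161, 171 and 172 in DNTCF4, 131, 132 and 135 in the EZH2 group and 138, 133 and 135 in the SET group. It stepped down from Vector to DNTCF4 and again to the groups with a second construct, at -0.12 (SE 0.035, adjusted p = 0.01), -0.34 (SE 0.035, adjusted p = 4.59e-06) and -0.31 (SE 0.035, adjusted p = 1.51e-05). The first of these was lost without Vector replicate 1 (adjusted p = 0.0546).

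Ppp1r15a encodes GADD34, which recruits the phosphatase that reverses eIF2 phosphorylation. It read 166, 168 and 166 CPM in Vector, 185, 217 and 212 in DNTCF4, 153, 153 and 149 in the EZH2 group and 155, 157 and 149.8 in the SET group. All DNTCF4 libraries were the highest, and replicate 1 was the lowest of them. The changes were 0.29 (SE 0.049, adjusted p = 9.92e-05) in DNTCF4, -0.43 (SE 0.048, adjusted p = 1.08e-05) with EZH2 and -0.41 (SE 0.049, adjusted p = 2.15e-05) with SET. Chac1, which encodes an enzyme that degrades glutathione, read 205, 204 and 217 CPM in Vector, 158, 169 and 168 in DNTCF4, 146, 145 and 147 in the EZH2 group and 148, 146 and 142 in the SET group. Vector lay above DNTCF4, and DNTCF4 above the 6 libraries with a second construct, with no overlap at either step. Its changes were -0.34 (SE 0.037, adjusted p = 1.68e-06), -0.18 (SE 0.037, adjusted p = 0.00283) and -0.18 (SE 0.037, adjusted p = 0.00231). Cebpg, a dimer partner of ATF4, rose with DNTCF4 by 0.26 (SE 0.061, adjusted p = 0.00171) and fell with EZH2 by 0.29 and with SET by 0.30. Its rise was 0.17 without DNTCF4 replicate 1, and still called. Sesn2, a stress-induced inhibitor of mTORC1 signalling, was not called in any of these 3 comparisons, at 0.03, -0.03 and -0.10.

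**Figure D3:**
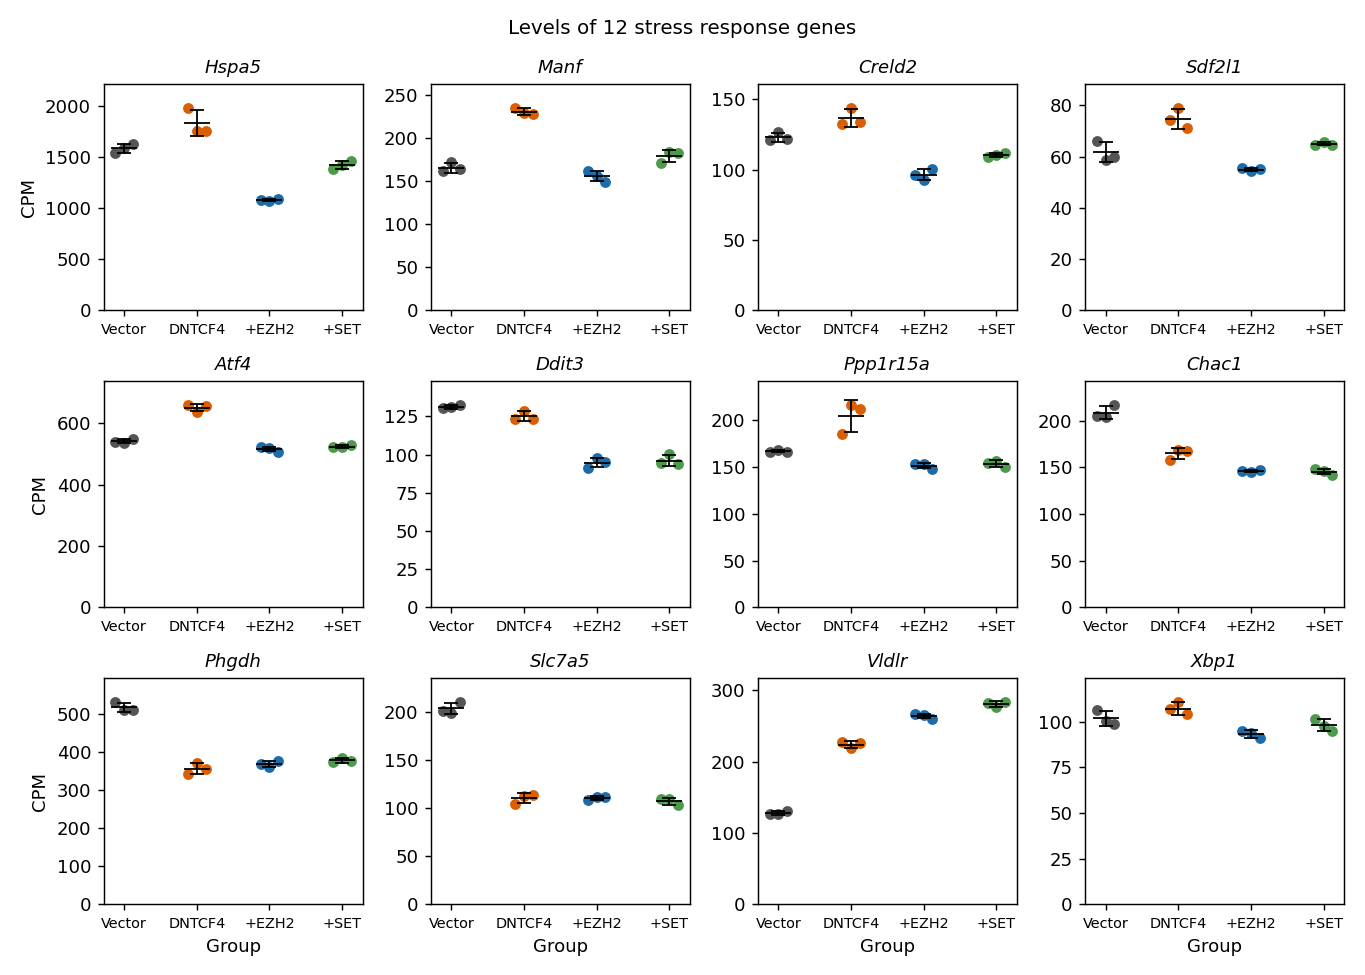
CPM of 12 of the genes in the 4 groups, with points for libraries and bars for the mean and SD of 3 libraries, each axis starting at 0; the labels +EZH2 and +SET stand for DNTCF4_EZH2 and DNTCF4_SET. Hspa5, Manf, Creld2 and Sdf2l1 are highest in DNTCF4 and lower with EZH2 than with SET, Atf4, Ddit3, Ppp1r15a and Chac1 sit at like levels in both groups with a second construct, and Phgdh, Slc7a5 and Vldlr keep the direction set by DNTCF4.

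The 2 largest changes of the 38 genes in DNTCF4 against Vector were at ATF4 targets and ran in opposite directions. Vldlr, which encodes the very low density lipoprotein receptor, read 127, 127 and 131 CPM in Vector, 227, 219 and 226 in DNTCF4, 267, 265 and 260.3 in the EZH2 group and 282, 276 and 284 in the SET group. The groups rose in the order Vector, DNTCF4, EZH2 group and SET group with no overlap. With DNTCF4 it rose 1.75-fold, at 0.81 (SE 0.032, adjusted p = 1.31e-11), and rose further with EZH2 by 0.24 (SE 0.031, adjusted p = 5.71e-05) and with SET by 0.33 (SE 0.032, adjusted p = 3e-06). Slc7a5, the light chain of the LAT1 transporter of large neutral amino acids, read 202, 199.7 and 211 CPM in Vector, 104, 113 and 114 in DNTCF4, 108, 112 and 112 in the EZH2 group and 109.9, 109 and 103 in the SET group. The Vector libraries were the highest and the other 9 shared 1 range. It was 1.85-fold lower in DNTCF4, at -0.89 (SE 0.042, adjusted p = 9.43e-11), with 0.00 (SE 0.042, adjusted p = 0.967) and -0.04 (SE 0.042, adjusted p = 0.557) for the second constructs. Slc3a2, the heavy chain of the same transporter, was not called in DNTCF4, at 0.08 (SE 0.041, adjusted p = 0.0937). Without DNTCF4 replicate 1 it was called higher there, at 0.13 (adjusted p = 0.00105), and lower with EZH2 at -0.14 and with SET at -0.17.

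Of the 4 serine and folate genes, 3 were called lower in DNTCF4, beside 28% of all genes. These 4 genes are part of the 15 ATF4 targets, of which 7 were lower and 4 higher there. Phgdh, the first enzyme of serine synthesis, read 531, 510.1 and 511 CPM in Vector, 342, 372 and 355 in DNTCF4, 368, 361 and 375 in the EZH2 group and 374, 384 and 375 in the SET group. All 9 libraries that carry DNTCF4 lay well below Vector, at -0.54 (SE 0.036, adjusted p = 5.35e-09), and the second constructs gave 0.05 (SE 0.036, adjusted p = 0.366) and 0.08 (SE 0.036, adjusted p = 0.0963). Psat1, which acts next in that pathway, fell by 0.25 in DNTCF4 and was not called with either second construct. Mthfd2, a mitochondrial folate enzyme, read 123, 121 and 128 CPM in Vector, 108, 108 and 111 in DNTCF4, 103, 99.7 and 102 in the EZH2 group and 103, 107 and 107 in the SET group. Vector was the highest group, with -0.19 (SE 0.036, adjusted p = 0.000447) in DNTCF4, and the small step with EZH2, -0.10 (SE 0.036, adjusted p = 0.049), was lost in 12 of 15 alternative fits. Shmt2, the mitochondrial serine hydroxymethyltransferase, read 166, 183 and 173 CPM in Vector, 143, 176 and 159.9 in DNTCF4, 153, 145 and 148 in the EZH2 group and 134, 139.9 and 129 in the SET group. Its DNTCF4 libraries spread over the range of Vector and the EZH2 group, and over all libraries only the fall with SET was called, at -0.25 (SE 0.061, adjusted p = 0.00745), beside -0.13 (SE 0.061, adjusted p = 0.0904) in DNTCF4 and -0.10 (SE 0.061, adjusted p = 0.264) with EZH2. Shmt2 was also called lower with EZH2 without DNTCF4 replicate 1, at -0.17 (adjusted p = 0.0062), and lower in DNTCF4 without its replicate 2, at -0.21 (adjusted p = 0.00425). Asns, asparagine synthetase, was lower in DNTCF4 at -0.09 (SE 0.031, adjusted p = 0.0265), a call lost without Vector replicate 2 or 3 or DNTCF4 replicate 3. Nupr1, a small stress-induced chromatin protein, read 98.7, 102 and 98.8 CPM in Vector, 112, 117 and 108 in DNTCF4, 104, 109 and 102 in the EZH2 group and 99.3, 101 and 99.98 in the SET group. DNTCF4 had the highest mean, though its libraries overlapped those of the EZH2 group. The change was 0.17 (SE 0.039, adjusted p = 0.00134) in DNTCF4, and the gene fell with SET, at -0.17 (SE 0.039, adjusted p = 0.00462), and not by the test with EZH2, at -0.10 (SE 0.038, adjusted p = 0.0767).

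**Figure D4:**
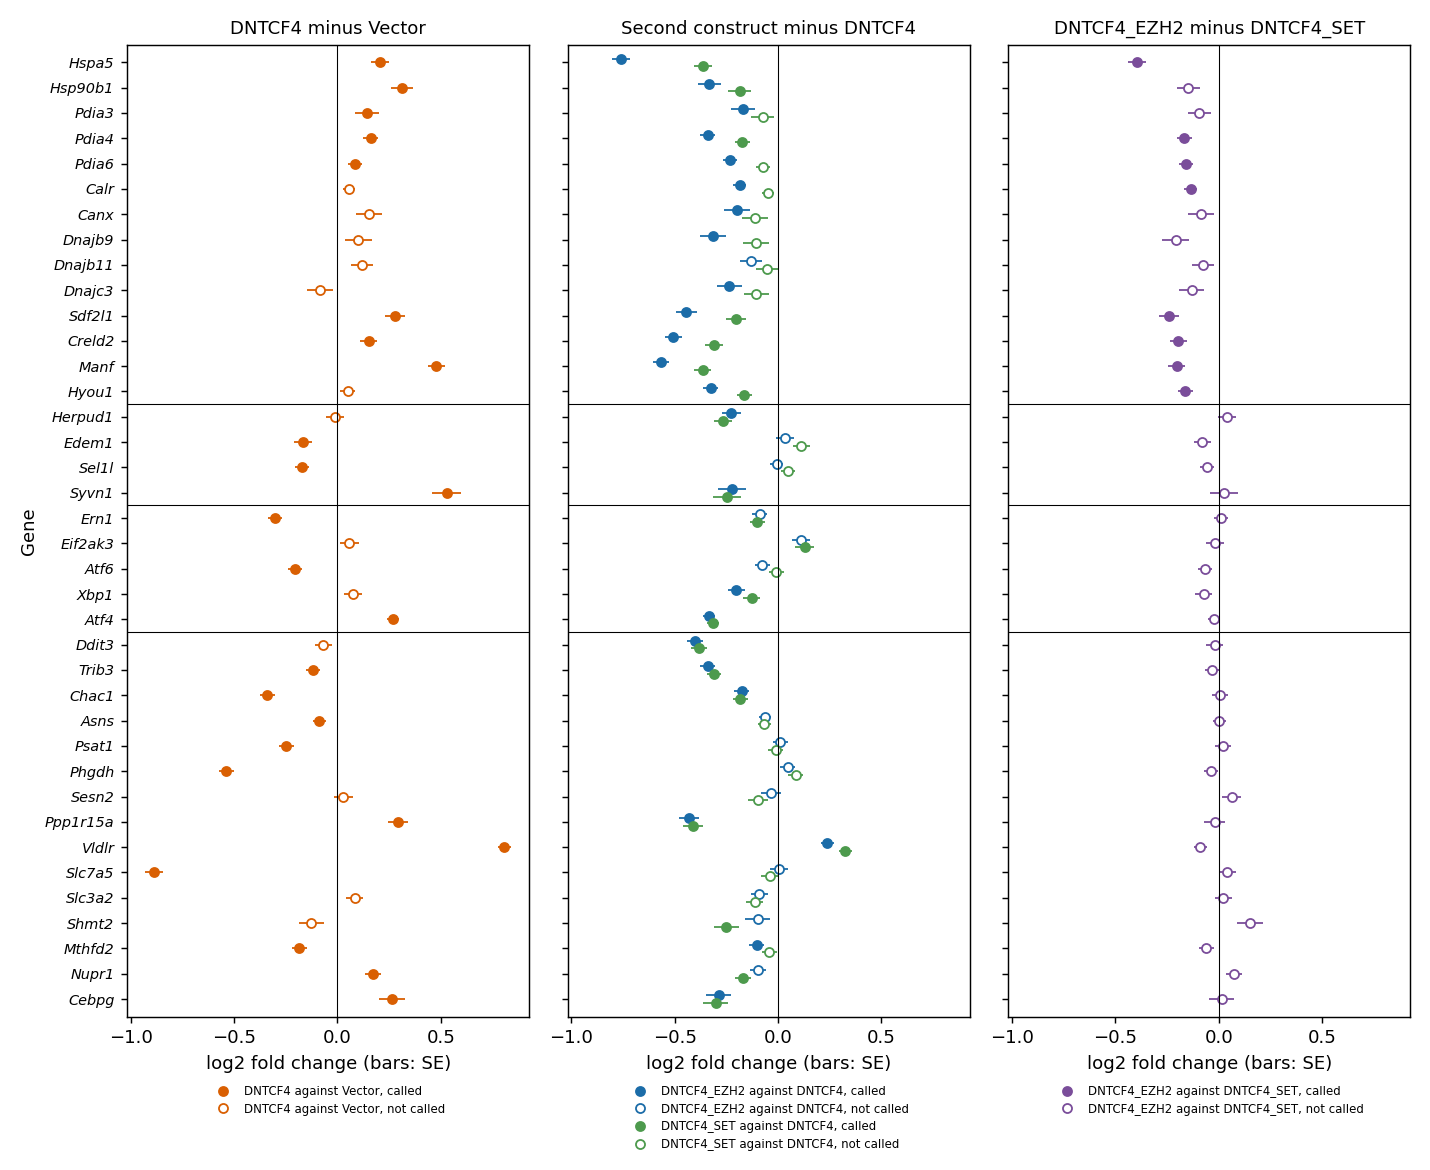
Log2 fold change with its SE for each gene, in DNTCF4 minus Vector (left), in each second construct minus DNTCF4 (middle) and in the EZH2 group minus the SET group (right), filled where the adjusted p is under 0.05. The chaperones at the top are the only filled points on the right, all below 0, and in the middle the EZH2 points of the chaperones lie below the SET points while those of most ATF4 targets coincide.

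Set beside each other, the median of the chaperones exceeded that of the ATF4 targets by 0.23 on the log2 scale in DNTCF4 against Vector and fell below it by 0.22 with EZH2. With SET the difference of medians was -0.02. Each is a description of 14 and 15 genes with no test. All 3 values moved by more than 1.5 times without DNTCF4 replicate 1, when they were 0.13, -0.13 and 0.08, so that the sign with SET turned.

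The direct comparison of the second constructs asks whether the EZH2 and SET groups differed. All 14 chaperones were lower in the EZH2 group than in the SET group in every library, with no overlap of the 3 libraries, against 15.3% of all genes with that pattern. The test called 8 of them lower, Hspa5, Manf, Sdf2l1, Creld2, Pdia4, Pdia6, Calr and Hyou1, against 2.17% of all genes called lower and 3% higher. Their median was -0.16, and the median of all genes was 0.0019. Hspa5 had the largest difference, -0.40 (SE 0.044, adjusted p = 9.24e-05), with a 95% interval of -0.50 to -0.29, followed by Sdf2l1 at -0.24 (SE 0.05, adjusted p = 0.0103). Manf gave -0.20 (SE 0.041, adjusted p = 0.00911) and Creld2 -0.20 (SE 0.042, adjusted p = 0.0131). The number of calls depended on single libraries: it was 1 without SET replicate 2, 2 without DNTCF4_EZH2 replicate 2, 3 without DNTCF4_EZH2 replicate 3, 4 without DNTCF4_EZH2 replicate 1 or SET replicate 3 and 6 without SET replicate 1, with a chaperone median of -0.15 to -0.17 throughout. Hspa5 was called in all of these.

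No ATF4 target was called between the EZH2 and SET groups by edgeR. At an unadjusted p under 0.05 there were 2, Vldlr at -0.09 (SE 0.031, adjusted p = 0.126) and Shmt2 at 0.15 (SE 0.061, adjusted p = 0.184), and DESeq2 called 1, Vldlr. Fitted on these 6 libraries alone, edgeR called both, together with 13 chaperones. Over the 15 targets the 95% intervals of the difference ran from -0.16 to 0.29, with a median estimate of 0.01. Ddit3 had an interval of -0.11 to 0.07 and Atf4, the factor itself, one of -0.09 to 0.05. Neither the 4 degradation genes nor the 5 sensors and factors had a call by edgeR or DESeq2, or an unadjusted p under 0.05. A difference that was not called is not shown to be absent within these intervals.

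Against Vector, the EZH2 group had 25 of the 38 genes lower and 3 higher (Vldlr, Syvn1 and Eif2ak3), beside 29% lower and 28.7% higher over all genes and a median of -0.16 beside -0.0075. The lower genes included 9 chaperones and 10 ATF4 targets, with the chaperone calls of Dnajb9 lost without Vector replicate 1 or DNTCF4_EZH2 replicate 1 and of Sdf2l1 without Vector replicate 1. The SET group had 17 lower and 4 higher (the same 3 genes and Manf), beside 29.9% and 28.1% of all genes and a median of -0.06 beside -0.022. There only 4 chaperones were lower, Hspa5, Creld2, Dnajc3 and Hyou1, with a chaperone median of 0.01, while 9 ATF4 targets were lower with a median of -0.23, beside -0.22 in the EZH2 group. The call of Dnajc3 was lost without Vector replicate 1 or 3 or SET replicate 1, and that of Hyou1 without Vector replicate 1 or 2 or SET replicate 3. Ddit3, Trib3 and Chac1 stood at -0.47, -0.46 and -0.51 with EZH2 and -0.45, -0.43 and -0.52 with SET, beside Hspa5 at -0.55 and -0.16. These comparisons share the Vector libraries with that of DNTCF4.

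Other genes of the pathways were read from lists that hold none of the 38. Of 52 further ER genes for folding, entry and degradation, 12 were higher and 20 lower in DNTCF4 (median -0.07), 7 higher and 13 lower with EZH2 (median -0.08), and 7 higher and 4 lower with SET (median 0.05). The shares over all genes were 29.5% higher and 28% lower in DNTCF4, 13% and 12.5% with EZH2, and 12.7% and 13.3% with SET. Ero1a (Ero1l in the files), the oxidase that recharges disulfide isomerases, rose with DNTCF4 by 0.70 (SE 0.06, adjusted p = 1.03e-07) and Pdia5 by 0.50 (SE 0.04, adjusted p = 5.14e-08), while the collagen chaperone gene Serpinh1 fell by 0.33. With EZH2 Txndc11 fell by 0.32 and Mbtps1, the protease that cuts ATF6, rose by 0.34 (SE 0.041, adjusted p = 2.78e-05). Between the EZH2 and SET groups 4 of the 52 were lower and none higher (20 and 1 at an unadjusted p under 0.05), with P4hb, the classical disulfide isomerase, at -0.19 (SE 0.031, adjusted p = 0.0019), and a median of -0.09. Over all genes 2.17% were called lower and 3% higher there.

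Of 25 further ATF4 target genes, 8 were higher and 9 lower in DNTCF4 (median 0.04), beside 29.5% higher and 28% lower over all genes. Stc2, a secreted glycoprotein, rose from 0.749 ± 0.105 to 14.8 ± 1.69 CPM (SD, n = 3, adjusted p = 9.44e-13), and the cystine transporter gene Slc7a11 rose by 0.92 (SE 0.062, adjusted p = 6.45e-09). Gdf15, a stress-induced cytokine, rose by 0.66 (SE 0.057, adjusted p = 1.07e-07) and the angiogenic factor gene Vegfa by 0.73 (SE 0.028, adjusted p = 7.01e-12). With EZH2, 1 was higher and 6 lower, and with SET none was higher and 7 lower (2 and 9 at an unadjusted p under 0.05). Over all genes 13% were higher and 12.5% lower with EZH2, and 12.7% and 13.3% with SET. The stress factor gene Atf3 fell in both, from 39.4 ± 0.719 CPM in DNTCF4 to 22.5 ± 0.671 with EZH2, at -0.81 (SE 0.043, adjusted p = 2.79e-09), and to 26.7 ± 0.202 with SET, at -0.56 (SE 0.043, adjusted p = 2.2e-07). Between the EZH2 and SET groups Atf3 was lower with EZH2, at -0.25 (SE 0.044, adjusted p = 0.0038), as were Ddit4 and Slc7a11, 3 of the 25. Over all genes 2.17% were called lower there. Stc2, Slc7a11, Gdf15 and Vegfa rose with DNTCF4 while Slc7a5, Phgdh and Chac1 fell, so these ATF4 targets had no common direction there. The counts of the 25 in DNTCF4 lay near the shares over all genes.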

How the data were processed

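RNA sequencing of 12 libraries was analysed, 3 in each of 4 groups named by the labels. The submitters' processing notes name RSEM 1.3.3 and STAR 2.7.8a, beside DESeq2, cutadapt 2.3 and FastQC 0.11.8, and the GRCm38 build. The sources used here do not give their order or settings, or any use of strand, so overlapping genes on opposite strands may share reads. The deposited gene table holds expected counts, all of them whole numbers. A second deposited table gives regularised log2 values (rlog, a DESeq2 transformation, per the deposited table's name) of 21754 genes, and it entered 1 alternative only.

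Genes were kept by edgeR's filterByExpr (minimum count 10, total 15), which left 15052, and tested with edgeR 4.0.16 (R 4.3.3), TMM normalization and quasi-likelihood F tests in 1 fit of the 4 group means over all 12 libraries (8 residual degrees of freedom, biological coefficient of variation 5.17%). P-values were adjusted by Benjamini-Hochberg over all tested genes, with a threshold of 0.05. The SE is the log2 change divided by the square root of F, and 95% intervals use the t distribution. CPM per kilobase used union exon lengths from GENCODE vM21. The test was checked on simulated counts of DNTCF4 against Vector, with changed genes drawn from all tested genes. It recovered 26 of 50 genes changed 1.25-fold, 32 of 50 at 1.5-fold, 37 of 50 at 2-fold and 48 of 50 at 4-fold. There were 5 false calls. Only 50 genes at each fold were changed in this simulation, out of 14754. In the data 29.5% of genes were called higher and 28% lower, so the adjusted threshold admits larger p-values there. The recovered shares therefore need not hold for the real comparison. limma 3.58.1 and DESeq2 1.42.0 served in alternatives, with other scalings, filters, a replicate term, only the libraries compared, and each library left out.

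Members, roles and pathway lists were chosen with earlier results of these data known. Values in every library are given for Atf4, Ddit3, Xbp1, Ern1, Eif2ak3, Atf6 and Hspa5, for the 4 chaperones and 4 ATF4 targets of smallest p in each comparison of DNTCF4 with Vector and of the groups that carry DNTCF4, and for Syvn1, which was added after its values were seen, and for the pathway lists at most the 4 genes of smallest p were named in each comparison. Other members were described by their changes.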

Additional observations from a re-analysis of the deposited data

How the results depend on the processing

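No called change of a member reversed direction under any alternative run (DESeq2 size factors, library totals without TMM, DESeq2's test, limma on rlog values, no filter or a mean of at least 1 CPM, the replicate block, only the 6 libraries compared, each library left out, and, chosen after seeing the data, DNTCF4 replicate 1 and DNTCF4_EZH2 replicate 1 left out together). Requiring at least 1.5-fold left 2 members in DNTCF4 against Vector, 1 with EZH2 against DNTCF4, 0 with SET against DNTCF4, 0 between the EZH2 and SET groups, and 2 in each of these groups against Vector. Between the EZH2 and SET groups, 8 members were called over 12 libraries, 15 over only the 6 compared, and 1 to 6 with 1 library of these groups left out. The difference of medians, chaperones minus ATF4 targets, was 0.13 to 0.28 in DNTCF4 against Vector with 1 library left out and 0.13 with both left out. With EZH2 against DNTCF4 it was -0.13 to -0.27 and -0.12. With SET against DNTCF4 it was -0.067 to 0.083, and 0.083 with both left out, so its sign turned. Between the EZH2 and SET groups limma on rlog values gave -0.11. Against Vector the EZH2 group ranged from 0.017 to 0.12 with 1 library left out, and the SET group from 0.22 to 0.26, with 0.16 by limma on rlog values. The causes were not tested.

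Replicate numbers showed no clear pairing of the libraries. Same-numbered libraries correlated at -0.09 to 0.15 in their deviations from the group means, and in no comparison did every library correlate best with its own number. With 3 libraries a group this check has little power and cannot exclude a pairing. With a replicate block the members called were 23 in DNTCF4 against Vector (25 without), 22 with EZH2 (24), 19 with SET (21), 8 between the EZH2 and SET groups (8), and 28 and 21 for these groups against Vector (28 and 21). With 3 libraries a group, changes of about 0.1 on the log2 scale lie near the limit of the test for these members.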

Other observations

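The cytosolic aminoacyl-tRNA synthetases, which charge tRNAs and include several known ATF4 targets, had 10 of 20 genes lower, 2 higher and 8 not called in DNTCF4 against Vector by edgeR's test (median -0.11), beside 28% lower and 29.5% higher over all genes. Hars fell by 0.38 on the log2 scale, Sars by 0.22 and Mars1 by 0.22, while Qars was higher by 0.34. With EZH2 against DNTCF4, 6 of the 20 were lower and 1 higher (median -0.07), and with SET 8 were lower and none higher (10 and 1 at an unadjusted p under 0.05, median -0.09). The shares over all genes were 12.5% lower and 13% higher with EZH2, and 13.3% and 12.7% with SET. Wars was lower by 0.28 with EZH2 and by 0.29 with SET on the log2 scale, and Rars by 0.21 and 0.17. None of the 20 was called between the EZH2 and SET groups by edgeR, and none had an unadjusted p under 0.05 there.

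Of 15 genes for the eIF2 kinases, phosphatase and exchange factor, 3 were higher and 4 lower in DNTCF4 against Vector, shares no larger than the 29.5% and 28% over all genes. Against DNTCF4, 5 were lower with EZH2 and 4 with SET, beside 12.5% and 13.3% of all genes. Eif2ak2, which encodes the double-stranded RNA sensor PKR, stood at 155 ± 17.3 CPM in DNTCF4 and 81.3 ± 0.584 in the EZH2 group (SD, n = 3), and it fell by 0.93 on the log2 scale (edgeR adjusted p = 2.9e-08). Against DNTCF4 it fell by 0.59 with SET, and it was the 1 of the 15 called between the EZH2 and SET groups, at -0.35.

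The ERSE letters also occur in the promoter windows of 29 genes outside the 38, of which 9 were tested. In DNTCF4 against Vector 4 of these 9 were higher and 2 lower (median 0.22), beside 29.5% and 28% over all genes. Against DNTCF4, 2 were lower with EZH2 (median -0.16), Alg12 at -0.45 and Zfp57 at -0.33, and 3 were lower with SET (median -0.21). The shares called lower over all genes were 12.5% with EZH2 and 13.3% with SET. Between the EZH2 and SET groups 2 of the 9 were higher and 0 lower (median 0.035), beside 3% and 2.17% over all genes. The CARE letters occur in windows of 1212 genes outside the 38, of which 296 were tested. Of these, 94 were higher and 92 lower in DNTCF4 against Vector (median -0.02). Against DNTCF4, 34 were higher and 48 lower with EZH2, and 25 and 49 with SET. The shares called higher over all genes were 13% with EZH2 and 12.7% with SET. Between the EZH2 and SET groups 9 were higher and 15 lower.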
